A study of Homo sapiens with 27 samples.

Results

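The measurements described here are the expression levels of 10 genes that encode glycolysis enzymes, in *GNAQ* mutant 92.1 uveal melanoma cells kept with or without an inhibitor of focal adhesion kinase (FAK). The genes are *HK1*, *HK2*, *GPI*, *PFKP*, *ALDOA*, *TPI1*, *GAPDH*, *PGK1*, *ENO1* and *LDHA*. They were picked out by symbol, and all 10 were found among the 61533 genes of the count table. Of the 10, *HK1* differed most between treated and control cells at day 21 and in the mean over the 4 treated days, and at day 21 its level with the inhibitor was 0.479 times that of the controls. At day 21 *GPI*, *ALDOA*, *TPI1* and *GAPDH* were also lower with the inhibitor, while at day 14 *GPI*, *TPI1*, *PGK1*, *ENO1* and *LDHA* were higher. Of all genes tested, 11.6% differed at day 21 and 12.4% at day 14. Of these calls at single days, all but that of *ENO1* at day 14 were lost in some fits that left out 1 library. The call of *HK1* in the mean over the 4 days held in all 24 such fits. The day 14 calls did not hold in a single fit of all 27 libraries. The control cells themselves changed between collection days, and 8 of the 10 genes differed between control cells at day 21 and day 0, where 44.9% of all genes tested did.

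92.1 is an established human uveal melanoma cell line, so all libraries come from a single line. Cells were kept in 100 nM VS-4718 (FAKi) or in DMSO, the solvent, for up to 21 days, with both renewed every 72 h. The 27 mRNA libraries form 9 groups of 3. DMSO cells were collected at day 0, and cells of both treatments at days 3, 7, 14 and 21. All groups, controls included, carry the *GNAQ* mutation of the line, and FAKi was given at a single dose. The study's methods describe triplicate plating as well as repeats of the whole experiment, and the labels do not say which of these a replicate number counts, so p-values measure only the spread between these samples.

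Total counts per library lay between 12161994 and 43651551, and the lowest count of any of the 10 genes in any library was 469. The 7 melanocytic markers (*MITF*, *SOX10*, *PMEL*, *MLANA*, *TYR*, *DCT* and *TYRP1*) had counts in every library, and their summed level lay between 9437 and 14950 CPM (the usual unit of read counts scaled to the size of a library, here with TMM factors over all libraries). Summed levels of the other marker lists were 6.03 to 17.0 CPM for 6 fibroblast genes, 0 to 0.944 CPM for 4 endothelial genes, 5.90 to 52.8 CPM for 5 epithelial genes, 23.4 to 123.9 CPM for 5 immune genes and 924.4 to 2628 CPM for 4 genes of the retinal pigment epithelium. The immune sum was nearly all *CD68*, with *PTPRC* at no more than 0.089 CPM, and the pigment epithelium sum was nearly all *BEST1*, with *RPE65* at no more than 0.392 CPM. In bulk RNA, fewer cells of a kind and less RNA per cell cannot be told apart.

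Among the 27 libraries, 3 stood apart as those that lay farthest on average from their own replicates. The distance of any pair of libraries is the root mean square of their log2 CPM differences over the 15523 genes that had no count below 10 in any library, and replicates of a group lay at a median of 0.330 from each other. In all, 9 libraries were nearest to a library of another group. DMSO day 3 replicate 1, the library with the most counts, was nearest to DMSO day 0 replicate 3 at 0.236 and lay on average 0.618 from its own replicates. Replicates 2 and 3 of DMSO day 3 were both nearest to DMSO day 21 replicate 3, at 0.332 and 0.285. Which of these DMSO libraries best stands for day 3 cannot be told from the distances. FAKi day 7 replicate 1 was nearest to FAKi day 14 replicate 1 at 0.175, which is below the lowest distance within any group (0.199), and lay on average 0.657 from its own replicates. DMSO day 21 replicate 3 was nearest to DMSO day 3 replicate 3 at 0.285 and lay on average 0.658 from its own replicates. The table's name for this last library, repeated in the sample's description, holds a day number that no group has, and its day was taken from the sample's title. For the 10 genes, the numbers that passed in tests that use these libraries are given with and without them. Levels, ratios of group means, isozyme shares, overlaps of groups and correlations are given only with them. Named genes and gene lists outside the 10 are given only from fits that include these libraries.

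Glycolysis splits a molecule of glucose into pyruvate in the cytosol and yields ATP and NADH, and lactate dehydrogenase returns the NADH to NAD+ by turning pyruvate into lactate. Many tumour cells run this route at a high rate even with oxygen present. Hexokinases trap glucose in the cell as glucose 6-phosphate, phosphofructokinase carries out the committed step, and the later enzymes from aldolase to enolase are abundant and work near equilibrium. Several of these genes are textbook targets of the hypoxia-inducible factor HIF-1.

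The first steps of the pathway are encoded on several chromosomes (coordinates in hg38, for the transcript that was counted). All 10 genes but *ENO1* are on the plus strand. *HK1* is on chromosome 10 from 69318847 to 69401882, and *HK2* on chromosome 2 from 74834127 to 74893359. *GPI*, glucose-6-phosphate isomerase, is on chromosome 19 from 34365196 to 34402413, and *PFKP*, the platelet-type phosphofructokinase, on chromosome 10 from 3067548 to 3136802. *ALDOA*, aldolase A, is on chromosome 16 from 30065760 to 30070414. Among the genes of the later steps, *GAPDH* is on chromosome 12 from 6534517 to 6538371 and *TPI1*, triosephosphate isomerase, 328.7 kb further on, from 6867119 to 6870948. *PGK1*, phosphoglycerate kinase 1, is on chromosome X from 78104248 to 78129295, *ENO1*, enolase 1, on the minus strand of chromosome 1, from 8861000 to 8878686, and *LDHA*, lactate dehydrogenase A, on chromosome 11 from 18394563 to 18408425. In every case the counts cover the exons of this single transcript.

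For some members the counts cannot be assigned to the gene alone, because other rows of the table share sequence with it. *LDHA* had 33250 counts over all libraries, fewer than the 38307 counts on the 6 rows named as its processed pseudogenes, of which *LDHAP4* alone had 16891. Pseudogene rows came to 10.4% of the member's own counts for *TPI1*, 9.47% for *HK2*, 5.49% for *ENO1* and 4.22% for *GAPDH* (65 rows). Of the exon bases of *ALDOA*, 89.8% are shared with another gene on the same strand (ENSG00000285043), and this row held between 88.4% and 99.4% as many counts as *ALDOA* itself. A gene on the opposite strand (ENSG00000269968) covers 32.8% of the exon bases of *GAPDH* and held between 33.7% and 59.4% as many counts. How reads with several matches were treated, and the strand setting of the counting, are not given in the sources used here. The levels of *LDHA* and *ALDOA* are therefore uncertain, and with pseudogene counts added to each parent gene 6 members passed at day 14 and 5 at day 21, as many as without.

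The start of the counted transcript coincides with a start site in the RefSeq promoter table for 5 members, namely *HK2*, *ALDOA*, *PGK1*, *ENO1* and *LDHA*. The 250 bases before the start are shown for the 3 of these genes that were higher with FAKi at day 14 (*PGK1*, *ENO1* and *LDHA*) and, beside them, for *HK2*, which was not. They are from RefSeq on GRCh38.p14 and are written 5′ to 3′ in the direction of the gene, in lower case, with capitals on every match to the hypoxia response element cores ACGTG and GCGTG on either strand.
*PGK1*, chrX:78103998-78104247, plus strand: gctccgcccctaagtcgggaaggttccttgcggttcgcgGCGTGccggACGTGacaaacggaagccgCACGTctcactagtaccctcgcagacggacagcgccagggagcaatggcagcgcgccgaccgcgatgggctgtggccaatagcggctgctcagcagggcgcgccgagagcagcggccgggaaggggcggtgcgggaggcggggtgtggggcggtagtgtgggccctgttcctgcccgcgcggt
*ENO1*, chr1:8878687-8878936, minus strand: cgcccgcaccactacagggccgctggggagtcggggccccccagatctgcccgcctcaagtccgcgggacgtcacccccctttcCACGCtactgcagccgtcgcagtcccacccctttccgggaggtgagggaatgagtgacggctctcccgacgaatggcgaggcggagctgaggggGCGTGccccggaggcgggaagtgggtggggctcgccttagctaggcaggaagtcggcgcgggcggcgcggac
*LDHA*, chr11:18394313-18394562, plus strand: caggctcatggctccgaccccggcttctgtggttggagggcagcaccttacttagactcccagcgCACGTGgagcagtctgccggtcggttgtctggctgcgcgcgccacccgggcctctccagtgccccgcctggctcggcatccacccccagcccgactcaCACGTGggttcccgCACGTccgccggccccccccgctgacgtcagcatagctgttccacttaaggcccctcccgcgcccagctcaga
*HK2*, chr2:74833877-74834126, plus strand: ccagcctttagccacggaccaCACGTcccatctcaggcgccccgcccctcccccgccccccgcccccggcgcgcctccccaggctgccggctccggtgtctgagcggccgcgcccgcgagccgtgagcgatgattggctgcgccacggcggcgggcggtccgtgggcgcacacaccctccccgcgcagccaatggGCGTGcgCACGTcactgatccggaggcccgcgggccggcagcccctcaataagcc
ACGTG occurs 2 times in the *HK2* window, 2 times in that of *PGK1*, 0 times in that of *ENO1* and 5 times in that of *LDHA*, where the E-box CACGTG holds the core on both strands. GCGTG occurs 1, 1, 2 and 0 times in the same order. Of the 35116 RefSeq windows of this length, 18.5% hold ACGTG, 32.2% GCGTG, 6.34% CACGTG and 42.6% the GC box GGGCGG. Of the 5 member windows, 4 hold ACGTG, 3 hold GCGTG, 1 holds CACGTG and 4 hold GGGCGG. These matches describe the letters only, and no binding was measured.

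Compared per kilobase of counted exon, *GAPDH* was the highest member at 1954 ± 779.8 CPM per kb (SD, n = 27 libraries). *ALDOA* followed at 559.8 ± 153.8, *ENO1* at 442.9 ± 125.7 and *TPI1* at 150.4 ± 52.2 CPM per kb. Ranges over libraries overlapped between *ALDOA* (371.6 to 958.3) and *ENO1* (278.9 to 764.1) and between *ENO1* and *TPI1* (97.5 to 308.1), while the lowest value of *GAPDH* (1008) was above the highest of *ALDOA* and the lowest of *TPI1* above the highest of *PGK1* (65.8). *PGK1* was at 54.8 ± 6.69, *GPI* at 35.2 ± 7.33, *HK1* at 30.6 ± 9.17, *PFKP* at 26.2 ± 3.48 and *LDHA* at 22.0 ± 4.78 CPM per kb, and the ranges of these 5 genes overlapped from neighbour to neighbour. *HK2* was the lowest at 8.91 ± 2.14 CPM per kb, and its highest value (12.6) was below the lowest of *LDHA* (16.2) and of *HK1* (14.7). Between the lowest and the highest library *GAPDH* varied 3.96-fold and *PGK1* 1.61-fold, the widest and narrowest of the 10.

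Within each enzyme family the share of the members differed. *HK1* made up 65.6% to 83.1% of hexokinase expression per kb and *HK2* nearly all of the rest, with *HKDC1* at no more than 0.717%. *ALDOA* made up at least 97.0% of aldolase expression, and *ENO1* between 78.1% and 93.9% of that of enolase, followed by the muscle form *ENO3* with 5.79% to 21.8%. Phosphofructokinase expression was spread over *PFKM* (41.9% to 55.3%), *PFKP* (25.5% to 40.7%) and *PFKL* (10.7% to 22.4%). Of lactate dehydrogenase expression only 1.75% to 6.21% was counted on *LDHA* and the rest on *LDHB*, the form that is abundant in heart muscle, and the reads on *LDHA* pseudogenes noted above are not in this share. At day 21 the hexokinase share of *HK1* was 68.5% ± 2.64 with FAKi and 80.9% ± 2.53 with DMSO, and the phosphofructokinase share of *PFKP* was 26.1% ± 0.552 against 35.0% ± 1.59 (SD, n = 3 each). For both shares the FAKi and DMSO libraries of day 21 did not overlap.

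**Figure D1:**
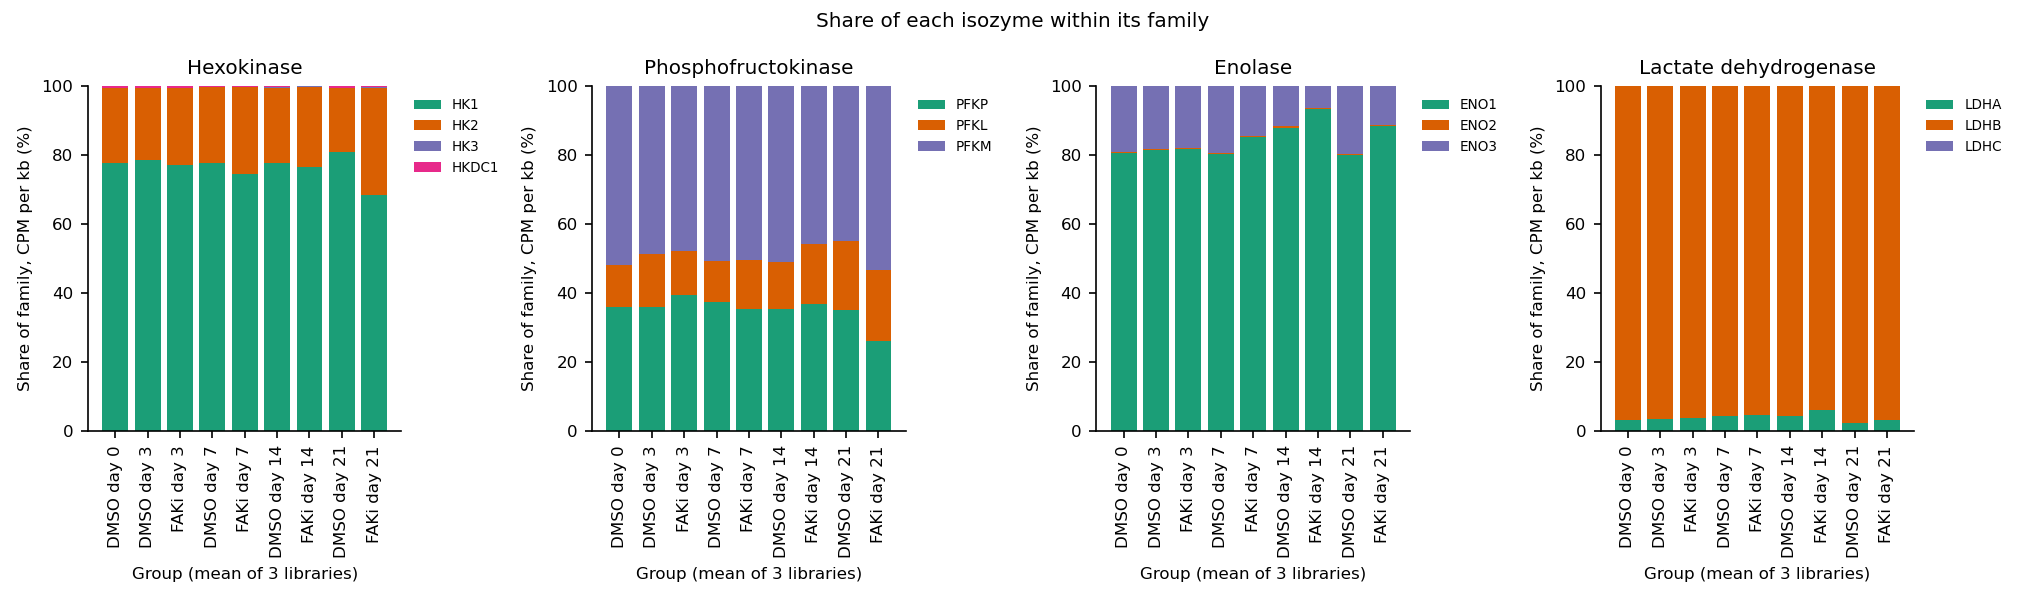
Share of each isozyme in the expression of its family (percent of summed CPM per kb of counted exon), as the mean of 3 libraries in each of 9 groups. *HK1*, *ENO1* and *LDHB* lead their families in every group, and FAKi at day 21 has the lowest *HK1* (68.5%) and *PFKP* (26.1%) shares.

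The DMSO cultures show how far the 10 genes moved without the inhibitor. *GAPDH*, which oxidises glyceraldehyde 3-phosphate, was at 2135, 2232 and 2234 CPM in the 3 libraries at day 0, and at 1563, 1278 and 1466 CPM in DMSO at day 14. In DMSO at day 21 it was at 4874, 5056 and 3661 CPM. The day 14 libraries were thus all below day 0 and the day 21 libraries all above it. *TPI1*, which interconverts the triose phosphates, was at 215, 211.3 and 192.9 CPM at day 0 and at 539.3, 507.9 and 342 CPM in DMSO at day 21. *ALDOA*, which cleaves fructose 1,6-bisphosphate, was at 756.4, 809.3 and 783.5 CPM at day 0 and at 1533, 1553 and 1186 CPM at day 21. For both genes the groups did not overlap, and replicate 3 of day 21 was the lowest of its group.

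Between DMSO at day 21 and day 0, *TPI1* rose by a log2 fold change of 1.16 (standard error 0.18, adjusted p = 0.00311) and *GAPDH* by 1.04 (standard error 0.18, adjusted p = 0.00392, edgeR quasi-likelihood test, Benjamini-Hochberg over all genes, as for each later adjusted p). *ENO1*, which forms phosphoenolpyruvate, rose by 0.88, *ALDOA* by 0.86, *LDHA* by 0.69 and *GPI* by 0.43 (adjusted p between 0.00368 and 0.0167). Both hexokinases fell, *HK2* by 0.68 and *HK1* by 0.40 (adjusted p = 0.0139 and 0.0248). *PGK1*, which makes the first ATP of the pathway, was at a log2 fold change of 0.24 and *PFKP* at -0.09, and neither passed (adjusted p = 0.12 and 0.547). In this fit the 6 enzymes that rose all act after glucose phosphorylation, while both genes that fell phosphorylate glucose. With the length and GC correction given below, *ALDOA* did not pass and *PFKP*, which acts after glucose phosphorylation, passed as lower.

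These 8 of 10 genes stand against a background in which 44.9% of the 22259 genes tested passed, 24.1% higher and 20.7% lower. Their median log2 fold change was 0.56 over the 10 members and 0.03 over all genes. With an absolute log2 fold change over 1 as a second threshold, *TPI1* and *GAPDH* passed, against 23.3% of all genes. DMSO groups did not overlap for 9 of the 10 genes, all but *PFKP*, against 58.1% of all genes. Across the 5 DMSO groups, 8 of the 10 members differed between days, all but *PFKP* and *PGK1*, against 49.9% of all genes. Without DMSO day 21 replicate 3, 9 of 10 members and 15124 of all genes passed between day 21 and day 0, against 9986 with it. Without DMSO day 0 replicate 1 or 2, 5 members passed, with 5428 and 6208 of all genes. When every library was corrected for GC content and transcript length, the log2 fold change was 0.27 for *ALDOA*, which no longer passed (adjusted p = 0.0861), 0.70 for *TPI1* and 0.50 for *GAPDH*, while *PGK1* (0.68) and *PFKP* (-0.36) passed.

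**Figure D2:**
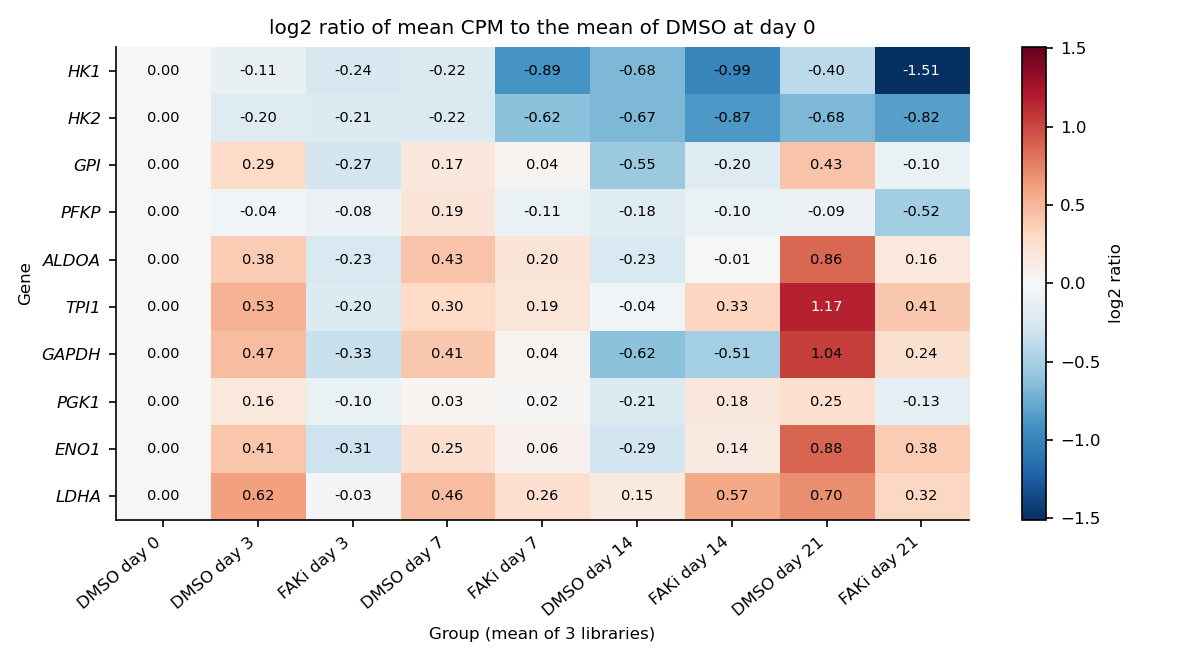
log2 ratio of the mean CPM of each group to the mean of DMSO at day 0, for the 10 glycolysis enzymes (rows) in 9 groups of 3 libraries (columns). *TPI1* (1.17) and *GAPDH* (1.04) are highest in DMSO at day 21, and *HK1* is lowest in FAKi at day 21 (-1.51).

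The treatment comparison asks how expression changed during FAK inhibition over time. *HK1*, which phosphorylates glucose and is the main hexokinase of these cells, was at 158.4, 151.5 and 150.4 CPM in DMSO at day 0. After 3 days its CPM values were 133.8, 120.6 and 135 under FAKi and 153.5, 129.4 and 143.7 under DMSO. After 7 days they were 78.2, 94.4 and 76.5 under FAKi and 140.2, 130 and 123.9 under DMSO. The FAKi values had thus parted from the controls by day 7. After 14 days the values were 79.8, 78.2 and 73.9 CPM under FAKi and 95.1, 96.5 and 95 CPM under DMSO. After 21 days they were 52.4, 55.5 and 53.8 CPM under FAKi and 111.7, 111.6 and 126.2 CPM under DMSO. The groups overlapped at day 3, and on each later day every FAKi library was below every DMSO library. In order of days, the fitted log2 ratio of FAKi to DMSO was -0.12 ± 0.15, then -0.67 ± 0.14, then -0.31 ± 0.10 and last -1.06 ± 0.12 (± SE). It passed at day 14 (adjusted p = 0.0385) and at day 21 (adjusted p = 0.00441), and not at day 3 (adjusted p = 0.64) or day 7 (adjusted p = 0.189). At day 14 the call held without DMSO replicate 1 and was lost without any of the other 5 libraries (adjusted p 0.0632 to 0.153), in the single fit of all 27 libraries (adjusted p = 0.0978), with library totals alone (0.264) and without a count filter (0.0512). Without FAKi day 7 replicate 1 it also passed at day 7 (log2 fold change -0.63, adjusted p = 0.00741), and without FAKi day 21 replicate 2 its adjusted p at day 21 was 0.0541. In the mean over the 4 days *HK1* fell by 0.54 on the log2 scale (standard error 0.06, adjusted p = 1.05e-06).

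*HK2*, the hexokinase that is inducible by insulin and hypoxia, did not pass between FAKi and DMSO on any day in the fits of each day's libraries. With FAKi at day 21 it was at 36.5, 35.2 and 43.4 CPM, and with DMSO at 38.7, 34.8 and 53.6 CPM, so the groups overlapped. Its log2 fold changes on days 3, 7, 14 and 21 were 0.00, -0.41, -0.20 and -0.10. The sign depended on the scaling on the first of these days, and on the last it was 0.08 with library totals alone. *GPI*, which makes fructose 6-phosphate, was at 128.9, 125.8 and 121.2 CPM with FAKi at day 14 and at 93, 92.9 and 107.2 CPM with DMSO. At day 21 it was at 138.6, 133.9 and 130.1 CPM with FAKi and 192.6, 187.4 and 199.7 CPM with DMSO. *GPI* thus lay above all controls at day 14 and below all controls at day 21, and the levels with FAKi were close together on these days. *PFKP* was lower with FAKi at day 21 (51.1, 51.9 and 47.6 CPM against 74.4, 60.5 and 68.1 CPM) and the groups did not overlap, but the gene did not pass (log2 fold change -0.38, adjusted p = 0.0789).

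**Figure D3:**
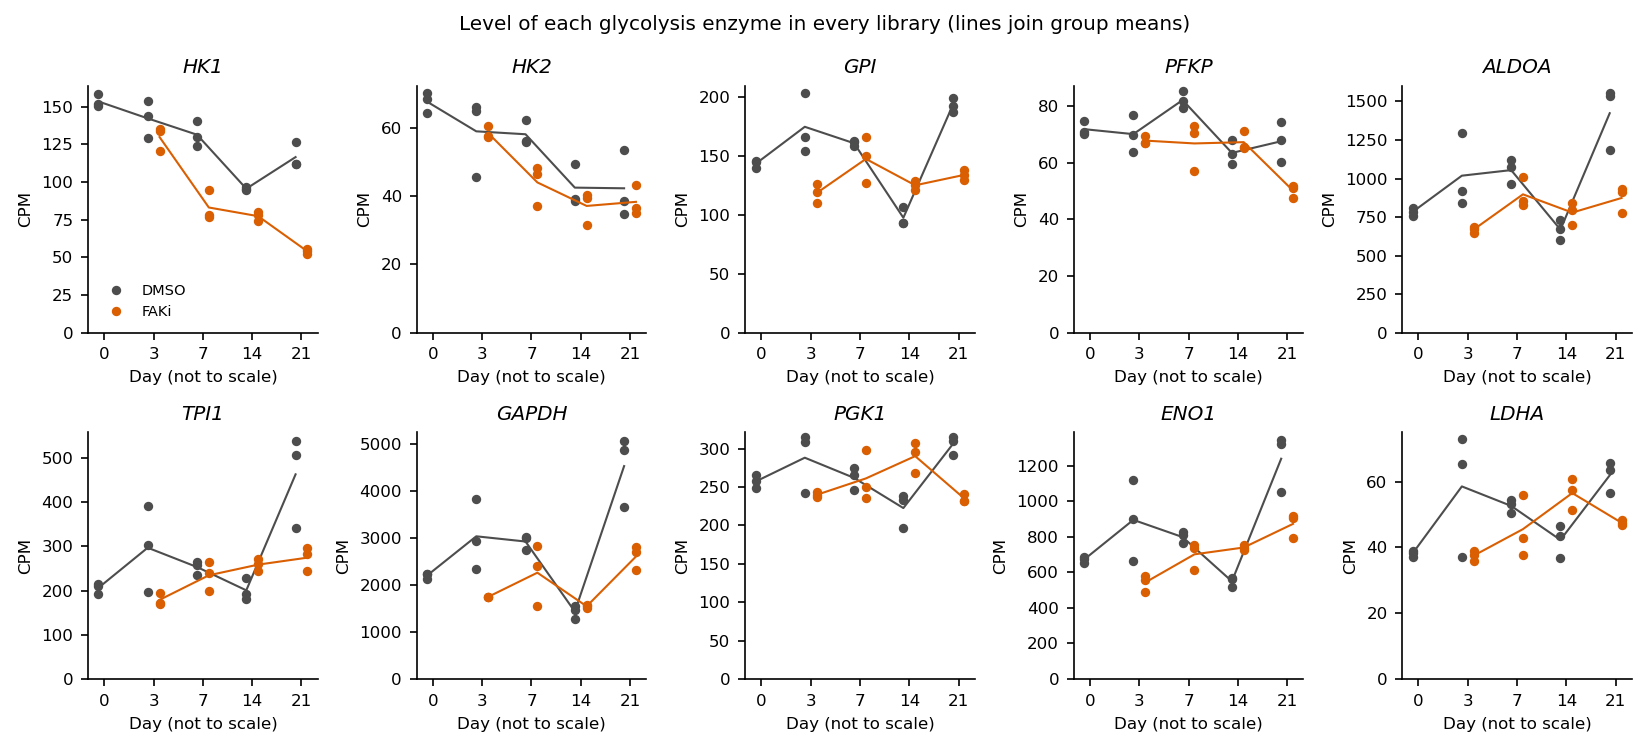
CPM of each of the 10 glycolysis enzymes in every library by day, with points for the 3 replicates and lines through the means of DMSO (grey) and FAKi (orange). *HK1* is at 52.4 to 55.5 CPM in FAKi at day 21, while *ALDOA*, *TPI1*, *GAPDH* and *ENO1* have their highest means in DMSO at day 21.

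At day 14 the middle and late enzymes were mostly higher with FAKi. *ENO1* was at 754.5, 724.5 and 739.3 CPM with FAKi and at 561.6, 518 and 568.8 CPM with DMSO. *LDHA* was at 57.5, 51.3 and 60.7 CPM with FAKi and at 46.6, 36.9 and 43.4 CPM with DMSO. *PGK1* was at 295.5, 267.9 and 307.4 CPM with FAKi and at 238.9, 196.2 and 232.9 CPM with DMSO. In all 3 genes the lowest FAKi library exceeded the highest DMSO library, as it did for *TPI1* and *GPI*. The log2 fold changes were 0.42 for *ENO1*, 0.41 for *LDHA*, 0.38 for *PGK1*, 0.36 for *TPI1* and 0.35 for *GPI*, with standard errors between 0.09 and 0.12 and adjusted p between 0.00309 and 0.0248. *ALDOA* (0.22), *GAPDH* (0.10) and *PFKP* (0.08) did not pass.

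With *HK1*, 6 of the 10 members passed at day 14, where 12.4% of the 23443 genes tested passed. Of all genes 6.35% were higher and 6.1% lower, against 5 and 1 of the members. No member had an absolute log2 fold change over 1, which 1.66% of all genes reached. The groups did not overlap for these same 6 members, against 28.9% of all genes, and the median log2 fold change was 0.29 over the members and -0.01 over all genes. For each of the 5 higher genes, all DMSO libraries of day 14 were below all DMSO libraries of day 7. Without DMSO day 14 replicate 2 or FAKi day 14 replicate 1, only *ENO1* passed (adjusted p = 0.0115 and 0.0329), and in a single fit of all 27 libraries 0 of 10 passed, with adjusted p of at least 0.061 and unchanged directions. Over all genes 2348, 1560 and 1553 passed in these fits, in the same order, against 2918 in the main fit.

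At day 21 the direction was the reverse. *GAPDH* was at 2802, 2695 and 2322 CPM with FAKi, and *TPI1* was at 296.7, 282.1 and 245.2 CPM. *ALDOA* was at 930, 911.7 and 779.2 CPM with FAKi, and *ENO1* at 918, 907.4 and 790.9 CPM against 1343, 1320 and 1052 CPM with DMSO. In these 4 genes every FAKi library was below every DMSO library of day 21, while all FAKi libraries stayed above the DMSO libraries of day 0 for *TPI1*, *GAPDH* and *ENO1*. The log2 fold changes were -0.75 for *GAPDH*, -0.70 for *TPI1*, -0.65 for *ALDOA* and -0.48 for *GPI*, with standard errors between 0.12 and 0.19 and adjusted p between 0.0394 and 0.0464. *ENO1* (-0.45), *LDHA* (-0.33) and *PGK1* (-0.33) did not pass, with adjusted p between 0.0891 and 0.102.

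The 5 members that passed at day 21 were all lower, where 11.6% of the 23212 genes tested passed and 6.32% passed as lower. Only *HK1* had an absolute log2 fold change over 1, against 5.28% of all genes. FAKi and DMSO did not overlap for 9 of the 10 members, all but *HK2*, against 35.4% of all genes, and the median log2 fold change was -0.47 over the members and 0.01 over all genes. Same-numbered libraries of this day met the criterion for pairs given below. With the replicate block 7 of 10 passed, with *PFKP* (adjusted p = 0.0353) and *ENO1* (adjusted p = 0.0265) added. The number over all genes also rose with the block, from 2692 to 6930. Without DMSO day 21 replicate 3, 9 of 10 passed, all but *HK2*, and without any other single library the number was 0 or 1, as it was 1 with upper quartile scaling. The number over all genes moved likewise, from 2692 to 11052 without DMSO day 21 replicate 3 and to between 52 and 490 without any other library. With upper quartile scaling, however, it was 2527. The sign of the 9 genes other than *HK2* was negative in each of these fits.

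**Figure D4:**
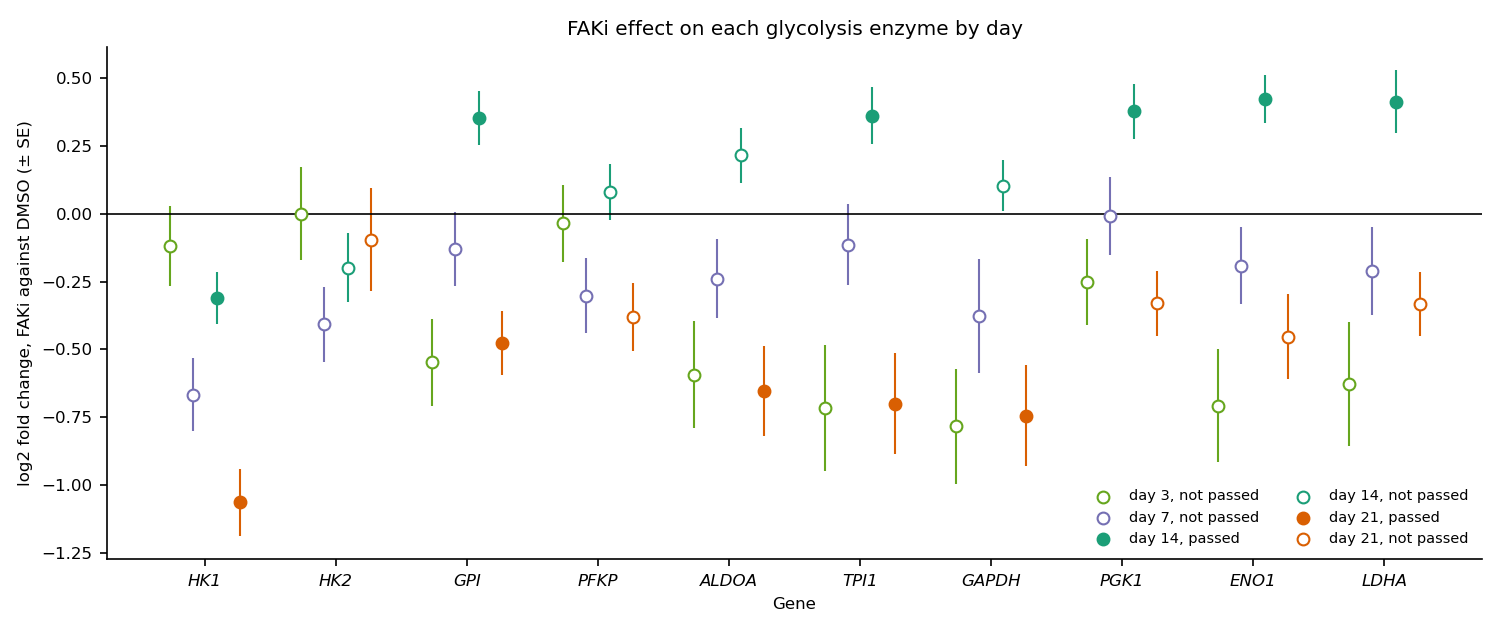
log2 fold change of FAKi against DMSO for the 10 glycolysis enzymes at days 3, 7, 14 and 21, with standard errors from edgeR and filled points for genes that passed an adjusted p of 0.05. Filled points at day 14 lie between 0.35 and 0.42 except *HK1* at -0.31, and those at day 21 lie between -0.48 and -1.06.

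At days 3 and 7 none of the members passed in the edgeR fit of each day's 6 libraries. In edgeR without a count filter, and in its single fit of all 27 libraries, 6 members passed at day 3 (with 3204 and 2575 of all genes) and 1 at day 7 (with 449 and 152). At day 3, 0% of the 22846 genes tested passed, and 6 of the 10 members (5442 of all genes) had an unadjusted p under 0.05. *GAPDH* was at 1750, 1738 and 1756 CPM with FAKi and at 2338, 2933 and 3840 CPM with DMSO. *LDHA* was at 36, 37.6 and 38.9 CPM with FAKi and at 37.3, 73.1 and 65.3 CPM with DMSO, where the lowest value is that of replicate 1. The FAKi and DMSO libraries of day 3 did not overlap for 5 members (*GPI*, *ALDOA*, *TPI1*, *GAPDH* and *ENO1*), against 30.9% of all genes. Without DMSO day 3 replicate 1, *GPI*, *ALDOA*, *TPI1*, *GAPDH*, *ENO1* and *LDHA* passed, with log2 fold changes from -0.62 to -0.93 and adjusted p from 0.000477 to 0.00531, in a fit in which 7109 genes passed in all. DMSO replicates 2 and 3, which remain in this fit, were both nearest to DMSO day 21 replicate 3. DESeq2 on all 6 libraries called 5 of the members and 1838 of all genes. At day 7, 0.0269% of the 22299 genes passed, and 2 members (*HK1* and *HK2*, against 1955 of all genes) had an unadjusted p under 0.05. DESeq2 called 1 member and 210 of all genes at day 7. The groups of day 7 did not overlap for 4 members, *HK1*, *HK2*, *PFKP* and *ENO1*, against 16.7% of all genes.

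In the mean over the 4 days 6 of 10 members passed, all of them lower, where 15.7% of the 27897 genes tested passed and 8.7% passed as lower. Beside *HK1* these were *GAPDH* (-0.45), *ALDOA* (-0.32), *TPI1* (-0.30), *ENO1* (-0.24) and *GPI* (-0.20), with standard errors between 0.06 and 0.09 and adjusted p between 0.00203 and 0.0376. No member reached an absolute log2 fold change over 1, against 1.89% of all genes. With the replicate block *ENO1* did not pass (adjusted p = 0.0517). Of the 24 fits that left out 1 library, *ENO1* did not pass in 15, *TPI1* in 11 and *GPI* in 4. *HK1*, *GAPDH* and *ALDOA* passed in all 24. Without the 3 libraries that stood apart, 8 of 10 passed, all but *HK2* and *PGK1*. Over all genes 9016 passed in that fit, against 4371 with these libraries. With library totals alone only *HK1*, *ALDOA* and *GAPDH* passed, with 4353 of all genes.

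The effect of FAKi differed among the 4 days for 7 of the 10 members, against 10.3% of all genes. These were *HK1*, *GPI*, *ENO1*, *TPI1*, *ALDOA*, *LDHA* and *PGK1*, and with the replicate block *LDHA* (adjusted p = 0.0528) and *PGK1* (adjusted p = 0.0557) were lost. Without the 3 libraries that stood apart, 9 of 10 passed, all but *HK2*, while the number over all genes rose from 2881 to 10510. Between day 3 and day 21 the effect changed past the threshold for *HK1* alone of the 10 (log2 difference -0.97, standard error 0.17, adjusted p = 0.0133), against 2.93% of the 25389 genes tested, 2.02% in this direction. With the replicate block its adjusted p was 0.052. For *GAPDH* (0.02) and *TPI1* (-0.01), which had negative fold changes at both days, this difference was near 0 and its sign depended on the scaling.

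Other quantities were measured in the same libraries. Mitochondrial genes took 5.49% to 9.75% of the counts in DMSO at day 21 and 10.7% to 11.2% in FAKi at day 21, and 22.0% to 27% in DMSO at day 14 and 20.7% to 22.1% in FAKi at day 14. The 10 enzymes together took 0.749% to 0.812% and 0.535% to 0.592% of the counts in these groups at day 21, and 0.280% to 0.344% and 0.380% to 0.411% at day 14. DMSO day 3 replicate 1 had 18.1% mitochondrial counts, against 9.59% and 8.61% in replicates 2 and 3. With mitochondrial genes left out of the libraries, 6 members passed at day 14, 5 passed at day 21 and 8 passed between the DMSO groups of days 0 and 21, as many as with them. The 12 proliferation markers had summed levels of 418.2 to 427.3 CPM in FAKi and 709.5 to 762.7 CPM in DMSO at day 21. There 9 of the 12 passed as lower, against 6.32% of all genes. At day 14 their sums were 1510 to 1552 CPM in FAKi and 1082 to 1121 CPM in DMSO, and 10 of the 12 passed as higher, against 6.35% of all genes. At day 3 the direction differed from that of the enzymes. All 12 markers had positive fold changes (median 0.53), while the median of the 10 enzymes was -0.57. The marker sums were 1171 to 1476 CPM in FAKi and 714.1 to 907 CPM in DMSO. In edgeR 0 markers passed and 8 had an unadjusted p under 0.05, against 5442 of the 22846 genes tested at day 3. In the mean over days 2 markers were higher and 6 enzymes lower. The part of the proliferation markers in the results for the 10 enzymes was not tested.

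**Figure D5:**
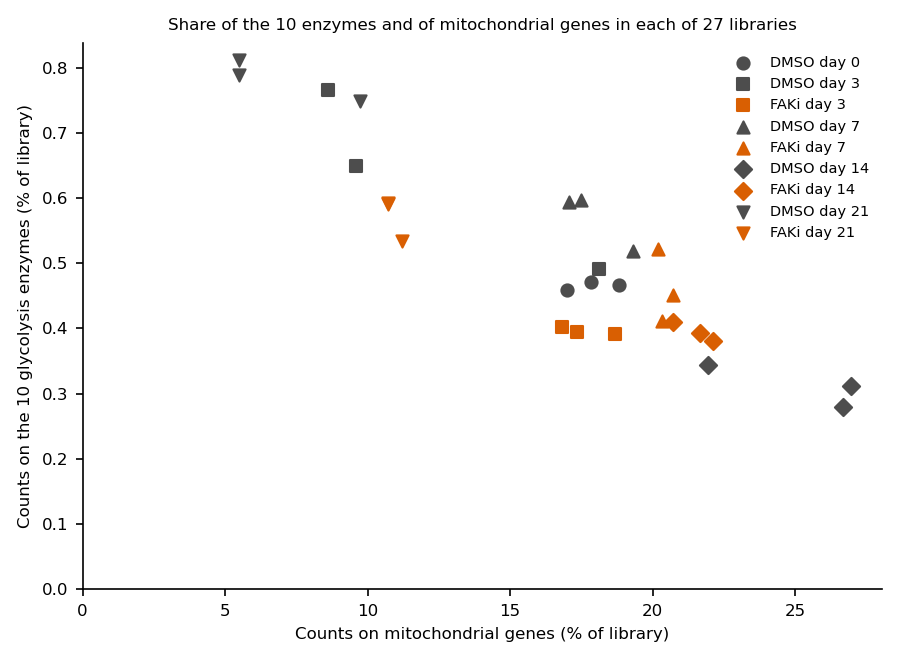
Share of the 10 glycolysis enzymes (percent of a library's counts) against the share of mitochondrial genes in each of the 27 libraries, by treatment (color) and day (symbol). DMSO at day 21 has high enzyme shares (0.749% to 0.812%, with DMSO day 3 replicate 3 between them at 0.766%) and low mitochondrial shares, and DMSO at day 14 has the lowest enzyme shares (0.280% to 0.344%).

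The remaining steps of the pathway are carried by genes outside the 10. *PKM*, the pyruvate kinase of most tissues, was at 640.8 to 661.1 CPM with FAKi and 434.8 to 500.3 CPM with DMSO at day 14, and at 256.4 to 285.3 CPM against 459.9 to 533.3 CPM at day 21. It rose at day 14 by 0.44 on the log2 scale (adjusted p = 0.00326) and fell at day 21 by 0.81 (adjusted p = 0.0112). *PGAM1*, phosphoglycerate mutase 1, likewise rose at day 14 by 0.47 (adjusted p = 0.0212) and fell at day 21 by 0.98 (adjusted p = 0.00666). *LDHB* fell at day 21 by 0.83 (adjusted p = 0.0386), after a rise in DMSO from day 0 to day 21 by 1.21 (adjusted p = 0.00352). *ENO3* fell at day 14 by 0.51 (adjusted p = 0.0039) and at day 21 by 1.40 (adjusted p = 0.0075), and the *ENO1* share of enolase expression at day 21 was 88.2% ± 0.0769 with FAKi and 80.1% ± 2.36 with DMSO (SD, n = 3 each). The 18 other isozymes of these steps had 14 tested at day 21, of which 6 fell and 0 rose, with a median of -0.29. At day 14 4 rose and 2 fell of 13 tested. Of all genes, 11.6% passed at day 21 and 12.4% at day 14.

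Genes of transport and regulation were also tested. *SLC2A1*, the main glucose carrier, was at log2 fold changes between -0.60 and -0.07 on the 4 days and passed on none, and its mean effect was -0.31 (adjusted p = 0.0395). *SLC16A3*, a lactate exporter induced by hypoxia, had a mean effect of -0.45 (adjusted p = 0.0306). Of 13 transporters tested at day 21, 0 passed in edgeR. An unadjusted p under 0.05 was reached by 3 of them, against 7576 of the 23212 genes tested. At day 14 2 transporters rose, among them *SLC2A8* (1.02, adjusted p = 0.0182). Of 20 regulators of glycolytic flux tested, 6 passed at day 14 (3 in each direction) and 2 at day 21 (1 in each direction). The shares over all genes were 12.4% at day 14 and 11.6% at day 21, for these lists and those below. *HIF1A*, the oxygen-regulated subunit of HIF-1, fell in DMSO from day 0 to day 21 by 1.75 (adjusted p = 0.00746) and was at 0.31 and 0.51 for FAKi at days 14 and 21 without passing. Of the 10 hypoxia markers without a glycolytic role that were tested at day 21, 3 rose and 1 fell, with a median of -0.11. Of 21 genes of the pentose phosphate route and other side branches, 3 fell and 0 rose at day 21, and in the mean over days 6 fell, among them *TKT* (-0.32) and *PGLS* (-0.51). Among all genes 6.32% passed as lower at day 21 and 8.7% in the mean.

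Over the 9 group means of log2 CPM the members fell into unlike courses, given here as a description of points that share libraries and scaling. *ENO1* and *TPI1* were the most alike (Pearson r = 0.972), followed by *ALDOA* and *GAPDH* (r = 0.945). *HK1*, *HK2* and *PFKP* were alike (r = 0.86 for *HK1* and *HK2*, 0.803 for *HK1* and *PFKP*, and 0.63 for *HK2* and *PFKP*) and less like the other 7, with r of at most 0.393. The median r to all other members was 0.22 for *HK1*, 0.20 for *PFKP* and -0.04 for *HK2*, whose lowest r was -0.41, to *LDHA*. *ENO1* had the highest median r to the other members (0.83). Of the 15513 other genes with at least 10 counts in every library, the highest mean r to the 10 members was that of *REEP6* (0.689), followed by *LRRC4B* (0.686), *CCAR2* (0.679), *FLOT2* (0.676) and *N4BP3* (0.669). For each of these 5 genes the lowest r to any member was between 0.21 and 0.393.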

How the data were processed

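Gene expression was measured by mRNA sequencing (TruSeq Stranded mRNA) in 27 libraries of 92.1 cells, in 9 groups of 3. Per the file headers and the study's methods, the authors trimmed reads with Trim Galore, checked them with FastQC 0.11.8, aligned them to hg38 with STAR 2.5.3a and counted reads over exons with HOMER's analyzeRepeats.pl, which gives 1 transcript row per gene. The deposited values are raw read counts, and the deposited transcript length was used for levels per kb. Strand setting and treatment of reads with several matches are not given in the sources used here.

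Groups follow the sample labels. The column of DMSO day 21 replicate 3 and the sample's description carry an extra digit in the day number, and the day in its title was used. Each comparison was fitted with edgeR 4.0.16 (quasi-likelihood test, TMM scaling, genes with at least 20 counts in total over the libraries fitted, Benjamini-Hochberg adjustment over all genes) in R 4.3.3, and a gene passed at an adjusted p of 0.05 or less. The study's own rule adds an absolute log2 fold change over 1, counted beside. The study used DESeq2, which was run as an alternative (DESeq2 1.42.0), as were other scalings, filters, a single fit of all libraries, the replicate block and leaving out each library. Length and GC correction, adding pseudogene counts and leaving out 3 libraries together were chosen after seeing the data. The scripts were tested on simulated counts with known changes. Members and gene lists were chosen with earlier results of these data known. All 10 members were named, with genes of the other lists that passed with an absolute log2 fold change over 1 on any day or in the mean FAKi effect at the adjusted p alone, and *PKM*, *PGAM1*, *LDHB* and *SLC2A1* whatever their values.

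Replicate numbers were checked as pairs through the correlation of the deviations of same-numbered libraries from their group means over 15523 genes. At day 21 the correlations were 0.483, 0.176 and 0.688, all over 0.1, the criterion used here for pairs. Libraries with unlike numbers were not compared, so the criterion alone does not establish that the numbers pair the libraries. The criterion was not met at day 3 (0.0238, 0.0579 and 0.115), day 7 (-0.175, -0.0788 and -0.0961), day 14 (0.00554, -0.0178 and -0.05) or between DMSO at days 0 and 21 (-0.028, 0.178 and 0.215). Total counts of 12161994 to 43651551 set the precision, and standard errors cover the spread between libraries.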

Additional observations from a re-analysis of the deposited data

Results flagged for a closer look

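The effect of FAKi differed among days 3, 7, 14 and 21 by edgeR's test of the treatment by day terms (Benjamini-Hochberg adjusted over all genes) for 7 of the 10 enzymes, against 10.3% of all genes, with adjusted p of 0.00314 for *HK1*, 0.00549 for *GPI*, 0.00732 for *ENO1*, 0.0169 for *TPI1*, 0.0288 for *ALDOA*, 0.0335 for *LDHA* and 0.0362 for *PGK1*. With the replicate block *LDHA* (adjusted p = 0.0528) and *PGK1* (adjusted p = 0.0557) were lost. *HK1* had negative fold changes on all 4 days, of which those at days 14 and 21 passed, and its effect differed between day 3 and day 21 (adjusted p = 0.0133), a call that is lost with the replicate block (adjusted p = 0.052). *GPI*, *ENO1*, *TPI1*, *ALDOA*, *LDHA* and *PGK1* had negative fold changes at days 3, 7 and 21 and positive ones at day 14, though not every one of these passed on its own. All groups held 3 libraries, so none was examined for single libraries far from the rest by a gap criterion.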

How the results depend on the processing

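Counts of members that passed, of 10, kept within 1.5 times in most alternatives. Without a count filter and in a single fit of all 27 libraries, 6 and 6 passed at day 3 and 1 and 1 at day 7, and with DESeq2 5 and 1. At day 14 the single fit gave 0, with 1553 of all genes against 2918 in the main fit. At day 21 it gave 8, DESeq2 8, upper quartile scaling 1 and library totals 2. Over all genes these day 21 fits gave 5413, 4782, 2527 and 2101, against 2692 in the main fit. Library totals gave 3 in the mean over days and 0 for day 21 against day 3, with 4353 and 716 of all genes. With an absolute log2 fold change over 1, the counts were 0 at day 14, 1 at day 21, 0 in the mean, 0 for day 21 against day 3 and 2 for DMSO at day 21 against day 0. The numbers over all genes with this threshold were 388, 1226, 528, 564 and 5177, in this order. The replicate block gave 7 at day 21, 5 in the mean, 5 among days and 0 for day 21 against day 3, and changed no count by over 1.5 times elsewhere. Over all genes it gave 6930, 3934, 2264 and 177 in the same order.

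Leaving out 1 library gave 0 to 6 at day 3 (6 without DMSO replicate 1), 0 to 1 at day 7 (1 without FAKi replicate 1), 1 to 7 at day 14, 0 to 9 at day 21 (9 without DMSO replicate 3, 0 without FAKi replicate 2), 3 to 7 in the mean, 3 to 8 among days, 0 to 1 for day 21 against day 3, 5 to 9 in DMSO at day 21 against day 0 and 7 to 10 among DMSO days. The numbers over all genes moved as well. They were 0 to 7109 at day 3, 0 to 645 at day 7, 1396 to 3127 at day 14 and 52 to 11052 at day 21. In the mean they were 3169 to 6849, among days 1574 to 6046 and for day 21 against day 3 159 to 2534. In DMSO they were 5307 to 15124 at day 21 against day 0 and 9653 to 14770 among days. At day 14, 3 passed without FAKi replicate 2 and 3 without FAKi replicate 3, with 1396 and 2300 of all genes. The mean was 3 without DMSO day 3 replicate 3 or FAKi day 21 replicate 3, among days it was 3 without DMSO day 14 replicate 2 and 4 when the library left out was FAKi day 14 replicate 1 or 2, DMSO day 14 replicate 3, FAKi day 21 replicate 3 or DMSO day 21 replicate 1, and day 21 against day 3 was 0 without FAKi day 3 replicate 3 or FAKi day 21 replicate 3. Over all genes these fits gave 3300 and 3169 in the mean, against 4371 in the main fit. Among days they gave 1574 to 2247, against 2881, and for day 21 against day 3 174 and 159, against 745. *HK1*, *ALDOA* and *GAPDH* passed in the mean, and *HK1*, *GPI* and *ENO1* among days, in all 24 fits that left out 1 library.

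Signs changed for the following log2 values. At day 3 *HK2* was -0.0176 with upper quartile scaling, -0.0283 with library totals, -0.0301 without a filter, -0.0127 with at least 10 counts in every library, -0.0026 with filterByExpr, -0.013 in the single fit and -0.0951 with length and GC correction (-0.16 to 0.0873 without 1 library). With that correction *PFKP* was 0.16 at day 3 (-0.11 to 0.0466 without 1 library) and -0.0185 at day 14. *HK2* at day 21 was 0.0763 with library totals (-0.22 to 0.13 without 1 library), *PGK1* in the mean 0.0162 with library totals, and *PGK1* at day 7 -0.12 to 0.0668 without 1 library. For day 21 against day 3, *GAPDH* was -0.0226 with RLE, -0.0211 with filterByExpr, -0.0008 in the single fit, -0.0226 with DESeq2 and -0.098 with length and GC correction. *TPI1* was 0.065 with upper quartile scaling, 0.25 with library totals, 0.0112 without mitochondrial genes, 0.0021 without a filter and 0.0336 with at least 10 counts in every library. With library totals *HK2* was 0.10, *ALDOA* 0.16 and *PGK1* 0.13, and with length and GC correction *PGK1* was 0.0491 and *GPI* -0.0681. Without 1 library this difference ran from -0.22 to 0.14 for *HK2*, -0.0721 to 0.15 for *GPI*, -0.29 to 0.0522 for *ALDOA*, -0.25 to 0.23 for *TPI1*, -0.18 to 0.19 for *GAPDH* and -0.16 to 0.0263 for *PGK1*. Library totals moved the median of all genes to 0.12 at day 14, 0.20 at day 21 and 0.33 for day 21 against day 3. The cause of these changes was not tested.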

Other observations

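Of 20 genes of the pentose phosphate route and other side branches tested at day 14, 2 fell and 2 rose with FAKi (edgeR, adjusted over all genes), where 12.4% of all genes passed. The 2 that fell, *PSAT1* and *PSPH*, act in serine synthesis, and are named because their log2 fold changes also exceeded 1 in size. *PSAT1*, phosphoserine aminotransferase, was at 63.8 to 72.2 CPM with FAKi and at 289.2 to 318.7 CPM with DMSO, and fell by 2.17 on the log2 scale (adjusted p = 5.43e-12). *PSPH*, which releases serine, fell by 1.10 (adjusted p = 4.09e-05). Of the regulators, *PCK2*, the mitochondrial phosphoenolpyruvate carboxykinase, fell by 1.91 (adjusted p = 1.49e-09). At day 21 *PSAT1* was at 363.9 to 389 CPM with FAKi and 363.9 to 467.4 CPM with DMSO.

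*TXNIP*, which limits glucose uptake, was at 10.9 to 14.0 CPM with FAKi and 44.1 to 50.2 CPM with DMSO at day 14, and at 41.7 to 43.6 CPM against 12.9 to 20.7 CPM at day 21. It fell at day 14 by 1.92 on the log2 scale (adjusted p = 1.84e-09) and rose at day 21 by 1.49 (adjusted p = 0.0054). *VEGFA*, an angiogenic growth factor and hypoxia marker, fell at day 14 by 1.64 (adjusted p = 9.4e-10) and rose at day 21 by 0.93 (adjusted p = 0.0257). For both genes the sign was opposite to that of *ENO1* and *PKM* on the same days. *PDK4*, which inhibits pyruvate dehydrogenase, rose at day 14 by 1.33 (adjusted p = 0.000793) and in the mean over days by 0.90, and *PDP1*, a phosphatase that activates it, rose in the mean by 0.40.

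Of the less abundant isozymes, *PGAM2* fell at day 21 by 1.40 and in the mean by 1.06, *HKDC1* in the mean by 1.12 and *ENO4* at day 14 by 1.03. The last 2 were near the floor. Group means of *HKDC1* lay between 0.127 and 1.11 CPM, and those of *ENO4* between 0.693 and 3.28 CPM. Their lowest counts in any library were 2 and 3. *GFPT2* (-0.74) and *PYGB* (-0.26) were lower in the mean, as were the hypoxia markers *ANKRD37* (-0.49) and *BNIP3* (-0.25), while *KDM3A* (0.24) and *MXI1* (0.25) were higher. From day 0 to day 21 in DMSO, *PKLR* rose by 1.74 (means of 0.887 and 2.97 CPM), *PGLS* by 1.69, *SLC2A8* by 1.51 and *ANKRD37* by 1.34. *MPC2*, a subunit of the mitochondrial pyruvate carrier, rose by 1.09 and *PGAM2* by 1.07.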
